A study of Mus musculus with 6 samples.

Results

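The 10 genes described here encode ligands, receptors and regulators of the melanocortin system and of energy balance: Mc4r, Mc3r, Pomc, Agrp, Mrap2, Sim1, Lepr, Npy, Npy2r and Cartpt. They were taken by name, and 10 of 10 matched the 21887 protein-coding genes of the RefSeq table (assembly GRCm38.p6). Estrogen receptor alpha (ERα) peaks were collected if they lay inside the span of one of these genes, or within 100 kb of it with that gene as the nearest protein-coding gene. The 6 peak lists of the series held 33 such peaks, and merging those that overlapped or touched gave 20 regions of 39374 in all. Of the 10 genes, 9 had at least 1 region and 1 (Lepr) had none.

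The series maps ERα by CUT&RUN, in which an antibody brings a nuclease to the protein's sites on chromatin and the fragments cut free are sequenced. Per the labels, the tissue was limbic system (for replicate 3 the tissue label reads only brain) of adult C57/BL6 males. In both groups the males had lost their gonads at 10 to 12 weeks of age and were injected 3 weeks afterwards. The estradiol group (3 libraries) had received 5 µg estradiol benzoate, a long-acting ester of estradiol, under the skin, and nuclei were isolated 4 hours later. The vehicle group (3 libraries) had received corn oil by the same route. Whether replicates were separate animals is not stated, so p-values measure only the spread between libraries, which may be technical. The material was whole tissue, so weak occupancy in many nuclei and strong occupancy in few nuclei cannot be told apart.

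Melanocortin signalling is a balance between ligands that act on the same receptors. Neurons of the arcuate nucleus that express Pomc release α-melanocyte-stimulating hormone, which activates the melanocortin 3 and 4 receptors, while neighbouring neurons release agouti-related protein, which opposes it, together with neuropeptide Y. ERα, the product of Esr1, is a hormone-bound transcription factor. It reaches DNA through estrogen response elements, inverted repeats of a short motif, or through other factors.

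The peak lists differed in length, with 11082, 14123 and 17558 peaks in estradiol replicates 1, 2 and 3 and 5421, 13717 and 20541 in vehicle replicates 1, 2 and 3. The replicate 3 lists differ in how peaks are named and carry shorter labels, and were treated as a batch of their own, which leaves 1 library for each treatment. In all 6 lists the smallest called summit held an estimated 4 fragments and the median summit 6, so a missing peak does not show missing occupancy. Regions in all 6 libraries were found at 1 of 5 neuronal (Syt1), 0 of 3 astrocyte, 0 of 3 oligodendrocyte and 0 of 5 liver marker genes, against 13.3% of protein-coding genes. These counts do not tell tissues apart, and a peak list gives no expression.

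The DNA under a region could be read for 1 of the 20. The region just outside Sim1, a transcription factor needed for the paraventricular hypothalamus, fell whole inside the promoter window that RefSeq gives for the neighbouring noncoding gene A230054N11Rik. The window is shown because it is the sequence of a peak, on the plus strand of GRCm38.p6, chr10:50894485-50894784, with the 32 bases of the peak region in capitals.
Sim1 region: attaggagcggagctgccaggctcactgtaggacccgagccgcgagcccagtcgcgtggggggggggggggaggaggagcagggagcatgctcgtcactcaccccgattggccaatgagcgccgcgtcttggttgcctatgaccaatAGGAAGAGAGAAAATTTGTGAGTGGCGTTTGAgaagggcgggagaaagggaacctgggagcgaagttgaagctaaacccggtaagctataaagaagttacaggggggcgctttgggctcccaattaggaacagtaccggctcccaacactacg
The region lies between the start of A230054N11Rik, whose start site is 98 bp away, and the span of Sim1, which begins 35 bp beyond the region's other side. The 300-base window held 0 copies of the full estrogen response element, searched as GGTCA, 3 bases of any kind and TGACC, which reads the same on both strands. It held 1 GGTCA motif (written TGACC on the other strand), the arm of that element, which ended 3 bases before the region, and the region itself held 0. A match of letters is a description and does not mark a site.

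RefSeq promoter windows, from 250 bases before to 50 after a transcription start, were found for 8 of the 10 genes, 9 windows in all, as Lepr has more than 1. Mc4r and Agrp had no window, so the counts below do not cover them. Both regions of Mc4r lay at an end of its span (0 and 39 bp from it). Strand was read only from these windows, so whether that end is the start of Mc4r was not determined. None of the 9 windows held a peak in any library, while 33.3% of 21263 windows of protein-coding genes held a peak in at least 1 library and 9.49% in all 6. None of the 9 held the full element either, which 0.0517% of those windows and 0.0700% of all 32851 windows held. GGTCA, on either strand, was found in 4 of the 9 windows (Mc3r, Mrap2, Pomc and Cartpt), against 39.4% of windows of protein-coding genes and 40.5% of all windows. The windows of Pomc and Mc3r are shown as a ligand and a receptor gene of the pathway whose start holds a GGTCA motif (capitals) and no peak; both are read along the gene's own strand, the plus strand.
Pomc (chr12:3954695-3954994): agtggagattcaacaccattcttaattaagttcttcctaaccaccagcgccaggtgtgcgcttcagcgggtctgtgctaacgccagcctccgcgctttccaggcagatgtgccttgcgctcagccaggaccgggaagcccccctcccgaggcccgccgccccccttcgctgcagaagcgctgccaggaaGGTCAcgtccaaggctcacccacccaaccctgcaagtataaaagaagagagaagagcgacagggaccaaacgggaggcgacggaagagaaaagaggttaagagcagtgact
Mc3r (chr2:172248242-172248541): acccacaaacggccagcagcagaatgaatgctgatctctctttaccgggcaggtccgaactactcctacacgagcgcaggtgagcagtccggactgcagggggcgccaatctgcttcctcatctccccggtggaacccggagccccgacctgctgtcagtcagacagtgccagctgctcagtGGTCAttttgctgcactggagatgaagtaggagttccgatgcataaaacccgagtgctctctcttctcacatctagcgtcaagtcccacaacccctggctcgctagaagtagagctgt
The motif begins 61 bases before the start in Pomc and 68 bases before it in Mc3r. The nearest peak of any library lay 4.90 kb from the Pomc window and 21.9 kb from the Mc3r window. The closest to any window was the printed Sim1 region, 738 bp from the window of Sim1.

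No region at these 10 genes met the strict estradiol-only rule, which asks for peaks in estradiol replicates 1, 2 and 3 and for none in the vehicle lists. Over all 39374 regions the rule was met by 0.737%, so 20 regions would hold 0.147 at that share, and 0 of 20 allows a share of up to 15.0% (3 counts, counting error only). The reverse rule, 3 of 3 vehicle and 0 of 3 estradiol libraries, was also met by 0 of 20, against 0.112% of all regions. When 2 libraries of a group sufficed, 1 of 20 regions was found in estradiol libraries alone (5.00%, exact 95% binomial interval 0.127 to 24.9), against 3.71% of all regions. The same looser rule for vehicle gave 0 of 20, against 2.6%. Pooling peaks up to 500 bp apart left 19 regions at these genes and the same counts under the 4 rules; over all 34978 pooled regions the shares were 0.946% and 0.126% under the strict estradiol and vehicle rules and 4.48% and 2.98% under the looser ones. Of the 19, 13 were held by 1 library, 6 by at least 2, 2 by at least 4 and 1 by all 6, against 52.3%, 47.7%, 21.8% and 8.25% of all pooled regions. The counts under the looser rules lie near the background, and no test was made for single regions; an exact test of 3 libraries against 3 gives no p under 0.1.

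**Figure D1:**
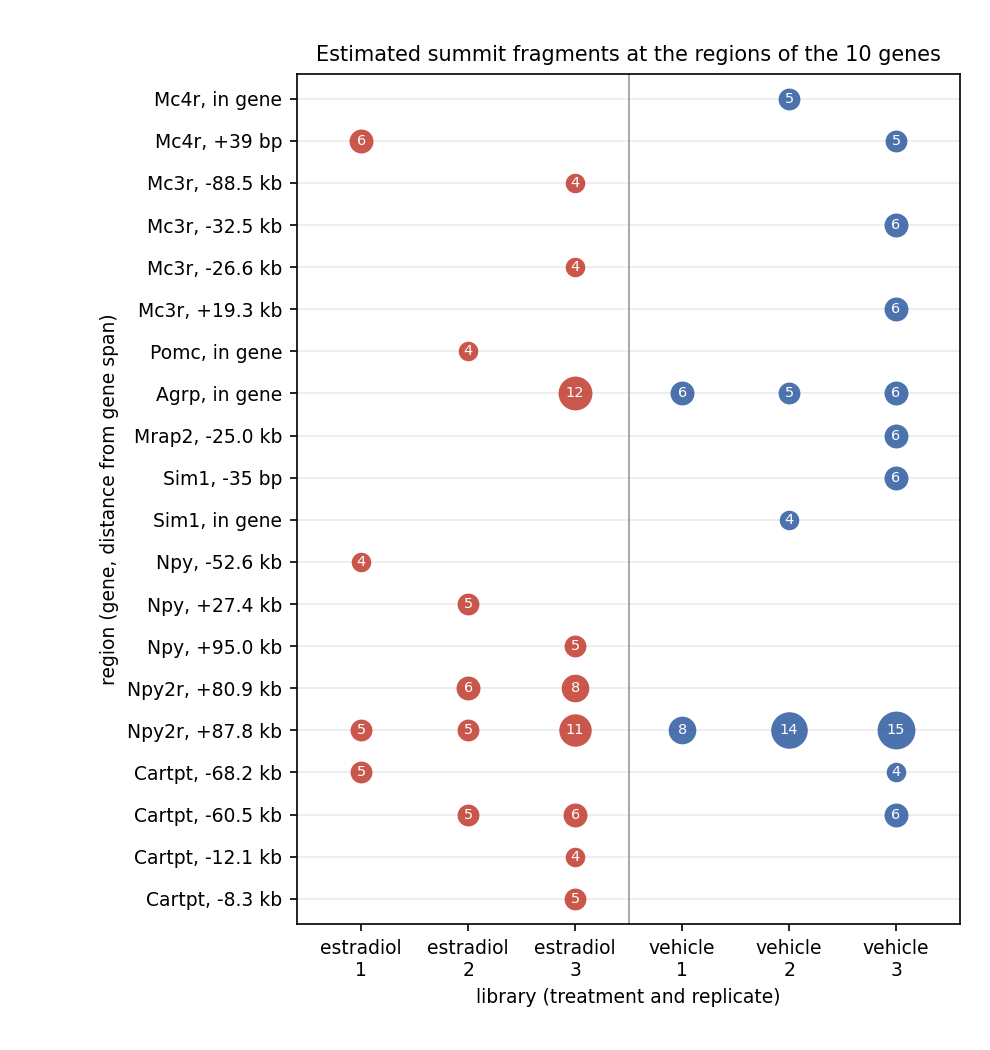
Estimated fragments at the highest summit (number in each dot, dot area to scale) for the 20 regions (rows, with the distance from the gene span; negative is toward lower coordinates) in the 3 estradiol and 3 vehicle libraries; an empty place means no peak in that list. The region 87.8 kb from Npy2r is the only row with 6 dots, and 14 rows have 1 dot.

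Mc4r encodes the melanocortin 4 receptor, whose loss causes obesity in mice and people. Its 2 regions lay next to each other where the gene's coordinates end (chromosome 18, 66857705 to 66860487), with 24 bases between them. Mc4r had no promoter window to give its strand, so this end may be the start or the stop of transcription. The outer region, 39 bp beyond the span at 66860526 to 66860612, had 6 summit fragments in estradiol replicate 1 (−log10 q 5.37), against 5 in vehicle replicate 3 (−log10 q 3.24). The inner region, at 66860471 to 66860501, had no peak in estradiol libraries and 5 fragments in vehicle replicate 2 (−log10 q 4.07). When peaks up to 500 bp apart were pooled, both became 1 region of 142 bp, held by 1 estradiol library and 2 vehicle libraries. The groups therefore overlap at Mc4r in both ways of counting. None of the other regions of any library lay within 100 kb of the gene, and within 500 kb there were 20 regions in all, 1 of them estradiol-only by the strict rule.

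That region, inside Gnal, was the nearest estradiol-only region to any of the 10 genes, 256 kb from Mc4r at 67116082 to 67116156. Gnal encodes a G protein alpha subunit of striatal and olfactory neurons. The region had 6, 5 and 5 summit fragments in estradiol replicates 1, 2 and 3.

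Mc3r, the receptor gene related to Mc4r, had 4 regions, all outside the gene (chromosome 2, 172248492 to 172251114) and all from replicate 3. Estradiol replicate 3 had peaks 88.5 and 26.6 kb before the gene, with 4 fragments each. Vehicle replicate 3 had peaks 32.5 kb before and 19.3 kb beyond it, with 6 fragments each. No region was shared, and replicates 1 and 2 of both groups had no peak there. The first region found in all 6 libraries lay 94.2 kb from Mc3r, at the end of Fam210b, with 6, 11 and 12 fragments in estradiol libraries and 6, 10 and 16 in vehicle libraries.

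Mrap2 encodes an accessory protein that binds melanocortin receptors and changes their signalling. Its single region lay 25.0 kb before the gene (chromosome 9, 87119187 to 87119232) and had no peak in estradiol libraries and 6 fragments in vehicle replicate 3.

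Of the ligand genes, Pomc, the precursor of the melanocortin peptides, had 1 region inside its span (chromosome 12, 3959889 to 3959938), 705 bp from the end where transcription stops. It was called in estradiol replicate 2 with 4 fragments, the fewest any called peak had, and in none of the vehicle libraries. The peak stood at the 6.72 percentile of its own list by −log10 q.

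Agrp, which encodes the antagonist agouti-related protein, had 1 region, 6182 bp inside the RefSeq span (chromosome 8, 105573594 to 105573663). It had 12 summit fragments in estradiol replicate 3 and no peak in estradiol replicates 1 and 2, against 6, 5 and 6 fragments in vehicle replicates 1, 2 and 3. Occupancy calls thus overlapped between the groups through a single estradiol library, in which the peak stood at the 90.7 percentile of the list. In the vehicle lists it stood at the 61.1, 49.4 and 55.2 percentiles. Without estradiol replicate 3 this would be a vehicle-only region, the 1 such region at these genes. Only 0.412 kb outside the Agrp span, at the end of Atp6v0d1, a proton pump subunit, lay a region held by all 6 libraries, with 13, 21 and 25 fragments in estradiol libraries and 13, 18 and 26 in vehicle libraries. It belongs to Atp6v0d1 by distance.

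Npy encodes neuropeptide Y, which promotes feeding. Each estradiol library had a peak in 1 region assigned to Npy and no vehicle library had any, so the groups did not overlap. The peaks were in different places. Estradiol replicate 1 had its peak 52.6 kb before the gene with 4 fragments, replicate 2 had it 27.4 kb beyond the gene with 5 fragments, and replicate 3 had it 94956 bp beyond with 5. The estradiol minus vehicle difference was 1 region per library (two-sided exact permutation p = 0.1, the smallest possible; Benjamini-Hochberg adjusted p = 1 over 13464 genes with a region). Among those genes 0.988% had more regions in every estradiol library than in every vehicle library, and 0.305% the reverse. Of the 1767 genes with 3 regions, as Npy has, 1.58% had more in every estradiol library than in every vehicle library. A peak in every estradiol library with none in vehicle libraries was found at 0.564% of the 13464 genes. None of the 13464 genes passed an adjusted p of 0.05, which this design cannot reach, 0 had an unadjusted p under 0.05, and 174 were at the smallest exact p of 0.1. The other 8 genes with a region had exact permutation p-values of 0.4 to 1 and adjusted p = 1. When every list was shortened to its 5421 strongest peaks, no peak at Npy was left and the difference was 0. Npy was singled out after its values were seen.

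Npy2r encodes the Y2 receptor, an inhibitory receptor on nerve endings for neuropeptide Y and peptide YY. Its 2 regions lay far out on the side of the gene's start (chromosome 3, 82538383 to 82548989, transcribed toward lower coordinates), 6658 bases from each other and outside protein-coding genes. The nearer region, at 82629934 to 82630166, 80.9 kb away, was the single one of the 20 to meet the looser estradiol rule. It had no peak in estradiol replicate 1, 6 and 8 fragments in estradiol replicates 2 and 3 (−log10 q 4.73 and 6.54), and no peak in the vehicle libraries. Without estradiol replicate 1 it would meet the strict rule, and without estradiol replicate 2 or 3 it would meet neither. It was also the widest of the 20, at 233 bp, against a median of 48.5 bp for the 20 and 60 bp for all regions.

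The farther Npy2r region, at 82636825 to 82636920, 87.8 kb away, was the only one of the 20 with a peak in all 6 libraries, a state shared by 7.27% of all regions. Its summit held 5, 5 and 11 fragments in estradiol replicates 1, 2 and 3, against 8, 14 and 15 in vehicle replicates 1, 2 and 3. Within its own list the peak stood at the 42.1, 40.8 and 84.5 percentiles in estradiol libraries and at the 80.8, 93.2 and 89.9 percentiles in vehicle libraries. Fragment numbers overlapped between the groups, as estradiol replicate 3 lay above vehicle replicate 1. Within replicates 1 and 2, and within replicate 3, the vehicle libraries had more fragments and higher percentiles than the estradiol libraries. Peaks were called per library and sequencing depth was not used here, so these heights were not tested against each other.

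Cartpt encodes the CART peptides, which reduce feeding. It had 4 regions, all beyond the gene's far end (chromosome 13, 99898483 to 99910179, transcribed toward lower coordinates). The region at 99837901 to 99838026, 60.5 kb away, had no peak in estradiol replicate 1, 5 and 6 fragments in estradiol replicates 2 and 3, and 6 fragments in vehicle replicate 3. The region 68.2 kb away had 5 fragments in estradiol replicate 1 and 4 in vehicle replicate 3. Regions 12.1 and 8.25 kb away were called in estradiol replicate 3 alone, with 4 and 5 fragments. Counted by library, Cartpt had 1, 1 and 3 regions in estradiol libraries and 0, 0 and 2 in vehicle libraries (exact permutation p = 0.5, adjusted p = 1). The groups overlapped, and the replicate 3 libraries held 5 of these 7 peaks.

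Sim1 had a second region inside its span besides the one printed above. The printed one (50894632 to 50894663) had 6 fragments in vehicle replicate 3, and the inner one (50982023 to 50982072) had 4 in vehicle replicate 2. Neither had a peak in an estradiol library. Counted by library, Sim1 had 0, 0 and 0 regions in estradiol libraries and 0, 1 and 1 in vehicle libraries (exact permutation p = 0.4, adjusted p = 1).

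Lepr, the leptin receptor gene, through which fat stores act on these neurons, was listed with no peak in any library (chromosome 4, 101717137 to 101815352), although its span is the longest of the 10. The same held for 38.5% of protein-coding genes. The nearest region lay 45.7 kb away, was assigned to Gm52666 and was held by 1 estradiol and 1 vehicle library. The nearest region of all 6 libraries lay 69.4 kb away at the end of Leprot, with 14, 11 and 11 fragments in estradiol libraries and 6, 13 and 14 in vehicle libraries.

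**Figure D2:**
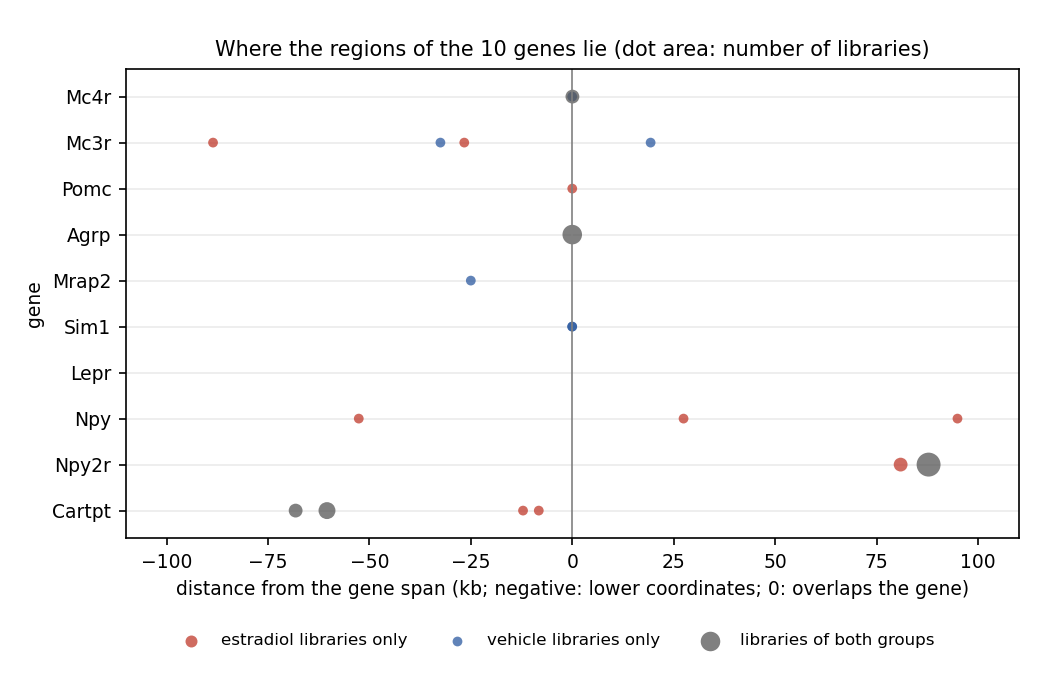
Distance in kb of each region from the span of its gene (x axis; negative is toward lower coordinates, 0 overlaps the gene) for the 10 genes (rows), with dot area by number of libraries and colour by whether estradiol libraries alone, vehicle libraries alone or both had a peak. Dots at Mc4r and at Sim1 fall on each other near 0; the Npy row has 3 estradiol dots at 3 distances and Lepr has none.

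Most of the 20 regions were distant, narrow and weak. Outside protein-coding genes lay 14 of 20 (70.0%, exact 95% interval 45.7 to 88.1), against 38.9% of all regions and 29.7% of regions within 100 kb of a protein-coding gene. Inside a gene and away from its ends lay 2 of 20 (those of Agrp and the inner Sim1 region), against 36.8% of all regions. Within 1 kb of a gene end lay 4 of 20 (20.0%, 5.73 to 43.7), those of Mc4r, the Pomc region and the outer Sim1 region, against 24.2% of all regions. Such shares depend on how much of the sequence nearest to a gene lies outside its span. Gene length and spacing were not matched to the background here. Whether 70.0% outside genes is more than the short spans of several of these genes would give was not tested. The 33 peaks had a median of 5 summit fragments and a maximum of 15, and 27 of 33 had at most 6 (81.8%, 64.5 to 93.0). Over all 82442 peaks the median was 6 and 55.8% had at most 6. A single library held 14 of 20 regions (70.0%, 45.7 to 88.1), against 58.9% of all regions. At least 2 libraries held 6 of 20, against 41.1% of all regions, and at least 4 held 2 of 20 (Agrp and the farther Npy2r region), against 19.1%.

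By treatment, 9 of the 20 regions had peaks in estradiol libraries alone, 6 in vehicle libraries alone and 5 in both, which is 45.0%, 30.0% and 25.0%. Over all regions the shares were 33.1%, 32.1% and 34.8%. Of the regions found in 1 treatment, 8 of the 9 estradiol ones and 6 of the 6 vehicle ones rested on 1 library, as did 88.8% and 91.9% of such estradiol and vehicle regions over the whole series. The 20 regions came to 1.48 per 100 kb of the sequence nearest to the 10 genes, where the figure for all protein-coding genes was 1.79. At that density 24.2 regions would fall to the 10 genes, which had 20.

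**Figure D3:**
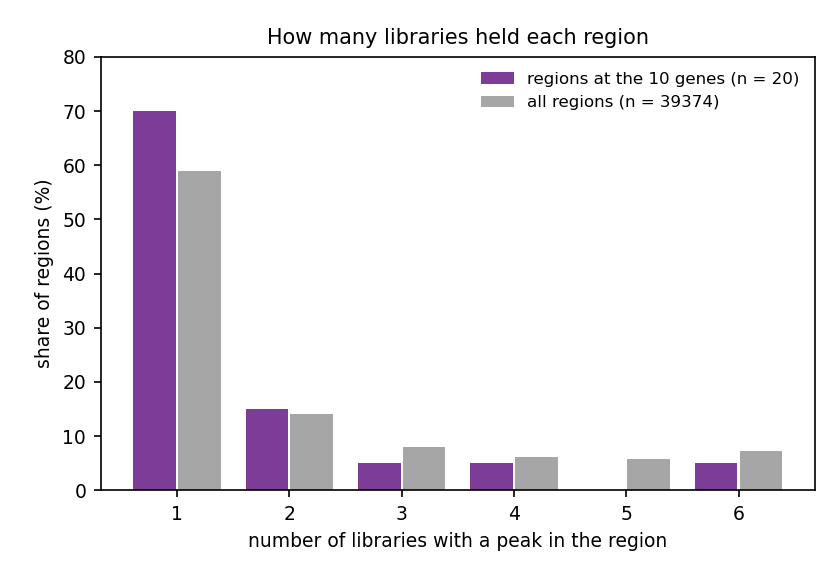
Share of regions in percent (y axis) by the number of libraries, 1 to 6, that had a peak in them (x axis), for the 20 regions at the 10 genes and for all 39374 regions. The first bar is 70.0% for the 10 genes and 58.9% for all regions.

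Counted by library, estradiol replicates 1, 2 and 3 had peaks in 4, 5 and 9 of the 20 regions, and vehicle replicates 1, 2 and 3 in 2, 4 and 9. The means were 6 ± 2.65 in estradiol libraries and 5 ± 3.61 in vehicle libraries (SD, n = 3 each), so the difference of 1 region was smaller than either spread. Within replicates 1 and 2 the means were 4.5 in estradiol and 3 in vehicle libraries, and in replicate 3 both libraries had 9. The numbers moved with the length of the lists. Within replicates 1 and 2 they ran from 2 regions at 5421 peaks (vehicle replicate 1) to 5 at 14123 (estradiol replicate 2). The replicate 3 libraries had both the longest lists and the highest numbers, so for their values list length and batch cannot be told apart. Per 10000 peaks the numbers came to 3.61, 3.54 and 5.13 in estradiol libraries and 3.69, 2.92 and 4.38 in vehicle libraries. Mean values were 4.09 ± 0.896 in estradiol libraries and 3.66 ± 0.733 in vehicle libraries per 10000 peaks (SD, n = 3 each).

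**Figure D4:**
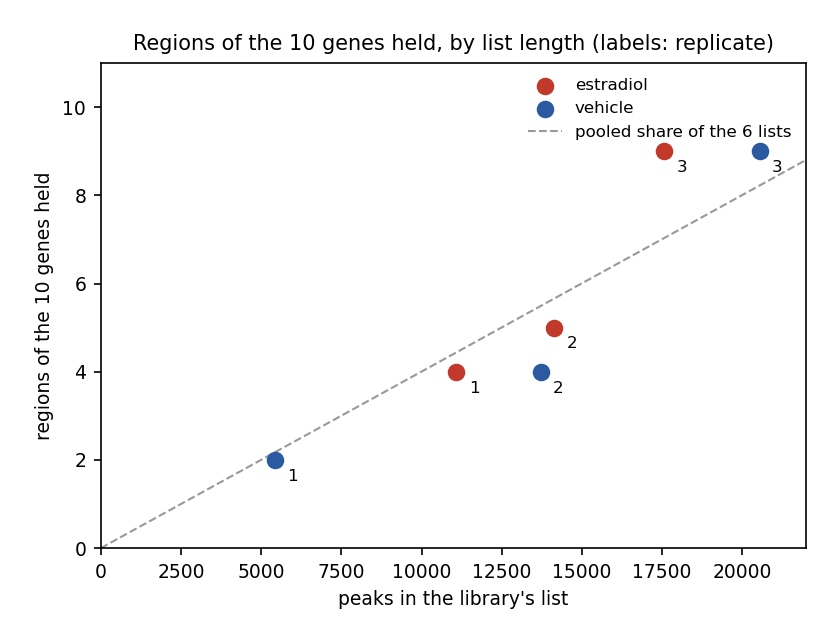
Number of the 20 regions held by each library (y axis) against the number of peaks in its list (x axis), for estradiol and vehicle libraries, with the replicate number beside each point and a dashed line at the pooled share of all 6 lists. The points run with list length, from 2 regions at 5421 peaks to 9 at 17558 and at 20541. Both points at 9 regions are replicate 3.

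No strict estradiol-only region of the series lay within 100 kb of any of these genes. The distance from the gene span to the nearest one was 256 kb for Mc4r, 551 kb for Mrap2 (inside Me1), 1384 kb for Npy2r (inside Pdgfc) and 1468 kb for Pomc. It was 2017 kb for Sim1, 3077 kb for Npy, 3596 kb for Cartpt, 6701 kb for Mc3r, 10793 kb for Agrp and 21256 kb for Lepr. The median over the 10 genes was 2547 kb, and over all protein-coding genes it was 3686 kb, with quartiles of 1313 and 7892 kb. Regions held by all 6 libraries were nearer for 8 of the 10 genes, the exceptions being Mc4r (589 kb) and Mrap2 (1255 kb). The series has 2863 such regions and 290 estradiol-only ones, and regions of all 6 libraries were nearer for 91.6% of 21631 protein-coding genes.

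**Figure D5:**
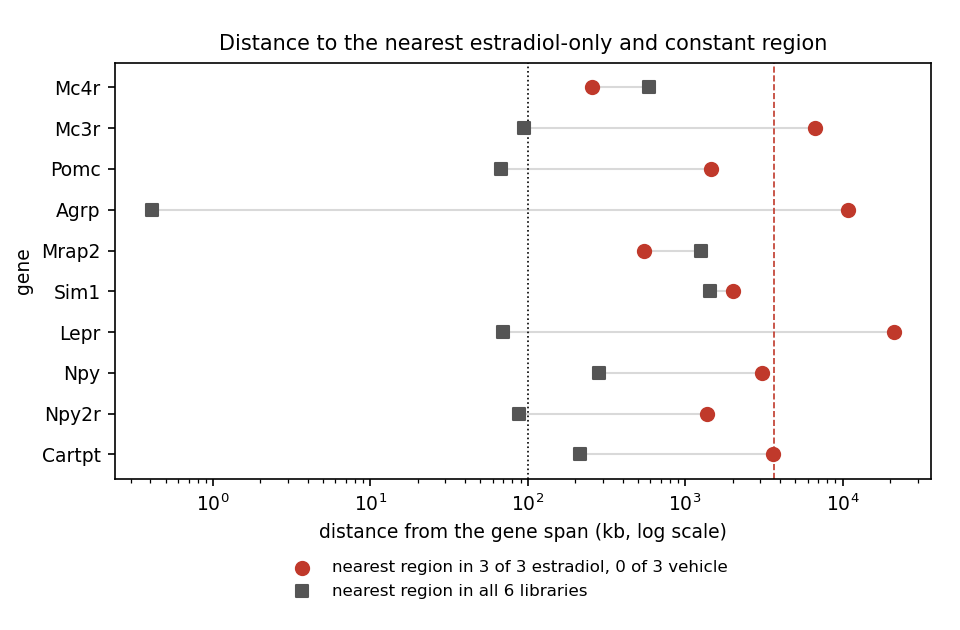
Distance in kb on a log scale (x axis) from each gene (rows) to the nearest region in 3 of 3 estradiol and 0 of 3 vehicle libraries (circles) and to the nearest region in all 6 libraries (squares). The dotted line marks 100 kb and the dashed line the median of 3686 kb to an estradiol-only region over all protein-coding genes; no circle lies under 100 kb.

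The assignment distance decided which far regions counted. The farthest ones inside it were those of Npy at 94956 bp and Mc3r at 88.5 kb, each in estradiol replicate 3. Just outside it, 3 regions at 103, 104 and 105 kb from Npy2r were each held by 1 vehicle library and by no estradiol library, and 1 at 117 kb from Cartpt was held by 1 library of each group. Regions within 100 kb of a gene but nearer to another one numbered 25 over the 10 genes. Of these, 0 met the strict or the looser estradiol rule, against 0.737% and 3.71% of all regions. The looser vehicle rule was met by 1, against 2.6% of all regions. The same region met the strict vehicle rule, as did 44 regions of the series (0.112%). It lay 50.6 kb from Agrp (105516080 to 105516136), nearest to Hsd11b2, which encodes an enzyme that inactivates glucocorticoids, and had 5, 5 and 5 fragments in vehicle replicates 1, 2 and 3.

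Other genes of melanocortin signalling and energy balance were taken from a longer list, of which 44 of 45 names matched. A region was assigned to 31 of the 44 (70.5%), against 61.5% of protein-coding genes. The strict estradiol rule was met at 1 of 44, Trh, which encodes thyrotropin-releasing hormone, against 1.09% of protein-coding genes. That region lay 49.5 kb outside Trh, with 5, 15 and 14 fragments in estradiol replicates 1, 2 and 3. With 2 estradiol libraries sufficing, 6 of 44 had a region (Cckar, Lep, Ntrk2, Pcsk2, Prcp and Trh), which is 13.6% against 5.05%. The regions of Lep and Cckar lay 33.4 and 4.15 kb outside these genes. The looser vehicle rule was met at 3 of 44 (Cpe, Stat3 and Tub), against 4.11%. Gene length and spacing were not matched in these shares, and no test was made. Pcsk2, a protease that processes the Pomc peptide, had 6 regions. Estradiol libraries held 2, 3 and 1 of these regions and vehicle libraries 0, 0 and 2 (exact permutation p = 0.3). The 1 Pcsk2 region that met the looser estradiol rule lay at an end of the gene. It had 7 and 4 fragments in estradiol replicates 1 and 2 and no peak in the other 4 libraries. Ntrk2, the receptor for brain-derived neurotrophic factor, had 6, 8 and 6 regions in estradiol libraries and 2, 6 and 6 in vehicle libraries (exact permutation p = 0.6). Cpe went the other way, with 0, 1 and 3 regions in estradiol libraries and 1, 4 and 4 in vehicle libraries (exact permutation p = 0.3). Of the 6 Cpe regions, 3 met the looser vehicle rule. The median difference in regions per gene was 0 over the 44 genes, of which 31 had a region, and 0 over all genes with a region. The groups did not overlap at 0 of the 31 genes with a region. Over all genes with a region, 0.988% were higher in every estradiol library and 0.305% in every vehicle library. Regions held by all 6 libraries were found at 4 of 44 (Bbs2, Ntrk2, Stat3 and Tub), against 13.3% of protein-coding genes.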

How the data were processed

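ERα CUT&RUN peak lists of 6 libraries, 3 estradiol and 3 vehicle, were used, with groups from the labels. Peaks were called per library, judged by their names, which also carry a q of 0.01 and an unexplained 25. Tools and build per the submitters' processing notes were MACS2, deepTools, SAMtools, Picard, Bowtie2 and cutadapt, with mm10; their versions and any control library are not given in those notes. The deposited lists give an integer score (10 times the −log10 q, rounded down), a fold over background, −log10 p and −log10 q values and the summit position, all the authors' own and used only within a list.

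Here summit fragments were worked out as the whole number whose Poisson upper tail, taking 1 as the pseudocount of the fold, matched the −log10 p within 0.0002 (100% of peaks in each library). They are estimates. The method was tested on simulated data built with the same formula and with peaks planted inside genes. Such a test checks the computation and cannot show that the deposited values follow that formula. Peaks that overlapped or touched were merged, and a region was assigned to every protein-coding gene span it overlapped, otherwise to the nearest within 100 kb. GRCm38.p6 has the coordinates of mm10. Assigning the peaks one by one gave the same 33. Promoter windows and their sequences are from RefSeq (GRCm38.p6); windows on opposite strands that overlapped matched in 1685 of 1685 cases after reversing. Gene spans have no exon structure here, and strand came only from the promoter windows. Genome sequence outside promoter windows was not used here. Intervals cover counting error only.

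The design planned the exact permutation test for each gene (two-sided, Benjamini-Hochberg adjusted over all genes with a region). All 10 genes are named by rule. For each gene the text gives the regions held by 4 or more libraries, those of 2 or more libraries of 1 treatment, and the top 3 by libraries and −log10 q. The genes, lists and rules were chosen with earlier results of these data known. The computations used Python 3.11.15, pandas 2.3.3, NumPy 2.4.6 and SciPy 1.17.1. Alternatives covered pooling within 500 bp, a −log10 q of at least 3, lists of equal length, 50% cover, 50 and 5 kb, summit position, left-out libraries, batches and pairing. Libraries that share a replicate number overlapped across groups by a Jaccard index of 0.320, and those with different numbers by 0.288. The labels do not say that a number marks a shared animal or day.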

Additional observations from a re-analysis of the deposited data

How the results depend on the processing

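No region at the 10 genes met either strict rule with pooling within 500 bp, a −log10 q of at least 3, lists of equal length, 50% cover, the 50 and 5 kb distances or summit positions. Under the looser estradiol rule the 1 region, at Npy2r, dropped to 0 with lists of equal length (5421 peaks each), at 50 kb, within 5 kb, and in replicates 1 and 2 alone. When single libraries were left out there were 0 to 1 strict estradiol-only regions (1 without estradiol replicate 1, at Npy2r), 0 to 1 strict vehicle-only regions (1 without estradiol replicate 3, at Agrp), 0 to 2 under the looser estradiol rule (0 without estradiol replicate 2 or 3, 2 without vehicle replicate 3) and 0 to 1 under the looser vehicle rule (1 without estradiol replicate 3). In replicates 1 and 2 alone the strict and the looser vehicle rule each gave 1 region, and in replicate 3 alone, with 1 library per group, 6 estradiol-only and 6 vehicle-only; the looser rules have no value there. The difference in regions per library was 1, and -1.33 to 3 over the 16 alternatives; it was below 0 at a −log10 q of at least 3, at 50 and 5 kb and without estradiol replicate 3 or vehicle replicate 1. With lists of equal length the signs turned at Mc4r (0.33) and Npy2r (-0.33). Pairing libraries by number (replicate block) gave 1 vehicle region, at Agrp, and 1 estradiol region, at Npy2r, each in 2 of 3 pairs; the mean paired difference was 1. The causes were not tested. The smallest called summits held 4 fragments, and 27 of the 33 peaks had at most 6; sequencing depth was not used here.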
